A study of Mus musculus with 25 samples.

Results

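DNA methylation was described at 5 mouse genes, Cldn15, Amotl2, Mxra8, Nrip2 and Mex3a, out of 16270 genes with a measured CpG. They were selected on the differences of mice under continuous calorie restriction (MCR and LFCR) from mice on the control diet (Control) at their promoter CpGs in these same mice, so those differences are a description here and carry no test. The deposited table held 105 of its 283909 CpGs on the autosomes and chromosome X at these genes, and 104 of the 105 had an average coverage of 10 reads or more. The working label of the group was junction and matrix genes. Cldn15 and Amotl2 encode junction proteins and Mxra8 encodes a membrane protein named for matrix remodeling, whereas Nrip2 and Mex3a belong to neither class, so the genes are called by their names below.

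The DNA came from C57BL/6N mice and was read by reduced representation bisulfite sequencing (RRBS), which sequences short MspI fragments after bisulfite treatment and gives, per CpG, the share of reads that were methylated. Obese mice on a 60% high-fat diet (D12492) were moved to weight loss by calories cut by 30% on Mediterranean-style food (MCR, n = 3), the same cut on low-fat food (LFCR, n = 4), low-fat food without a limit (LFD, n = 3) or calories cut intermittently (ICR, n = 5), or were left obese (Obese mouse 22). Control mice (n = 5) ate the diet D12450J throughout. Every mouse, Control included, was wild type and received E0771 mammary cancer cells in the 4th mammary fat pad at 25 weeks, and the 9th pad, on the side without the injection, was collected at the end. The sample titles carry the word tumor and the labels list the E0771 line, although the source is given as normal mammary tissue. The pad is bulk tissue, so a change in its mix of cells and a change of methylation within a cell cannot be told apart.

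Claudins are the membrane proteins that seal neighbouring epithelial cells to each other at tight junctions, and Cldn15 is one that forms a channel for small cations, known best from the intestine. Angiomotins, to which Amotl2 belongs, are scaffold proteins at cell junctions that bind the transcriptional coactivator YAP of the Hippo pathway. Mxra8 is an immunoglobulin-domain membrane protein that serves as an entry receptor for arthritogenic alphaviruses. Nrip2 encodes a protein that binds nuclear receptors, and Mex3a encodes an RNA-binding protein with KH domains. In mammals, CpG-dense gene starts are usually unmethylated, while CpGs in gene bodies and in CpG-poor regions usually carry methylation.

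Libraries held a value at 48.3% to 99.5% of all CpGs, the average coverage had a median of 29.3 reads, and the depth of single libraries is unknown. LFD mouse 46 and Obese mice 27, 28 and 40 were set aside, since their DNA was methylated at sites where the other 21 libraries had almost none. At 4 Amotl2 CpGs around the gene start they had 47.2% to 50.7%, and no mouse of the 21 other libraries was above 2.35%. Of the 104 CpGs, 84 also had a value in at least 3 mice of each group and entered the fits. Over 95331 CpGs with a value in all 21 libraries, the mean level was 46.5% to 47.2% in MCR mice, 46.5% to 54.5% in LFCR mice, 48.3% to 54.6% in LFD mice, 50.8% to 54.8% in ICR mice, 54.5% in Obese mouse 22 and 54.1% to 58.3% in Control mice. These levels of whole libraries moved in the same direction as the values below, and their part in the results was not tested.

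The start regions of Cldn15, Amotl2 and Mxra8 are printed because the sequence differs between the starts with low values after restriction, Cldn15 and Mxra8, and the start that was unmethylated in every group, Amotl2. RefSeq promoter windows, from 250 bases before to 50 bases after the start on GRCm38.p6, the assembly behind mm10, were matched for 4 of the 5 genes. They are written 5′ to 3′, and capitals mark the CpGs that RRBS measured with a coverage of 10 or more. They span chr5:136967619-136967918, chr9:102717554-102717853 and chr4:155839430-155839729, all on the plus strand.
Cldn15: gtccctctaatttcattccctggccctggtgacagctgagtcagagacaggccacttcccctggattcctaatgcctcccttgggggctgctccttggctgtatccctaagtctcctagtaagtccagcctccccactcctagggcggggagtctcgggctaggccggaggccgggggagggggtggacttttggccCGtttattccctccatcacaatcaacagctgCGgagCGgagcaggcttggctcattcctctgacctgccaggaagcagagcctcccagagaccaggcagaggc
Amotl2: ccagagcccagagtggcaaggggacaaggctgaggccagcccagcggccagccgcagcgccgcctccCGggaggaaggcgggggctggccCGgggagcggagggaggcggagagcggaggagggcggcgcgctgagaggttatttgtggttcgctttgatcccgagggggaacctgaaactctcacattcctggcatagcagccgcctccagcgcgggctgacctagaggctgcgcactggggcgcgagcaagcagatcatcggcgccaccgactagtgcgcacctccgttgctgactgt
Mxra8: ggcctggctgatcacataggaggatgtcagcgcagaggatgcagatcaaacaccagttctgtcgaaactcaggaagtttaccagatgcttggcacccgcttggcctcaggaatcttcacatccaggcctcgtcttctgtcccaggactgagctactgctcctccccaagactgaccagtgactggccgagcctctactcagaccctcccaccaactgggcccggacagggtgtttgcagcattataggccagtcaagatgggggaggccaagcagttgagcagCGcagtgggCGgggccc
The Cldn15 window held 7 CG pairs, the median of 32851 mouse promoter windows, and the Mxra8 window held 8. The Amotl2 window held 26. The MspI site CCGG occurred 2 times at Cldn15, 2 times at Amotl2 and 1 time at Mxra8, and 52.8% of all windows hold it at least once. Each of these 3 windows also held 1 copy of GGGCGG or its reverse complement CCGCCC, as did 35.7% of all windows. The window of Mex3a held no measured CpG.

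At Mex3a the 5 CpGs that the authors annotated to the 5′UTR all lay within the 82 bases of the microRNA gene Mir1905, which runs on the opposite strand at chr3:88536301-88536382. The hairpin is printed because every promoter-class value of Mex3a comes from it. Capitals mark the measured CpGs, and the first capital is the G whose C partner on that strand lies just outside the hairpin.
Mir1905 hairpin: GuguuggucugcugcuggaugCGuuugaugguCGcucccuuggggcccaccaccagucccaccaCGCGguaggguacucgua
The mature microRNA covers 2 of those CpGs in the genome, and here capitals mark its seed, bases 2 to 8.
mmu-miR-1905: cACCAGUCccaccacgcgguag

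Promoter-class CpGs are those the authors annotated upstream of a start, in the 5′UTR or in the 1st exon. Over those of them that entered the fits, the MCR mice had the lowest mean level at all 5 genes. LFCR came next, then LFD, then ICR, and Control was highest. The levels after MCR were between 3.0% and 28.9%, while Control averaged 50.4% to 74.6%. All 4 diet groups are set against the same Control mice, so the 4 differences given per gene are not independent of each other. The level of a mouse is the mean of the CpG means plus its own mean deviation, so a mouse that lacks some CpGs is placed by those it has.

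Cldn15 was measured at 7 promoter-class CpGs on chromosome 5, from 22 bp before to 161 bp after the RefSeq start, in a CpG-poor stretch outside islands and shores, with a median coverage of 13.8 reads. The MCR mice 85, 95 and 96 had 25.7%, 19.0% and 7.1%. The LFCR mice 63, 69 and 72 had 14.6%, 28.9% and 59.4%, and LFCR mouse 67 had too few values. These 2 restricted groups overlap, and LFCR mouse 72 stands far above the rest of its group. The LFD mice 42, 47 and 48 had 40.5%, 50.5% and 48.2%. The ICR mice 103, 105, 106 and 112 had 42.0%, 42.0%, 53.6% and 48.9%, Obese mouse 22 had 43.9%, and the Control mice 2, 5 and 13 had 73.3%, 73.9% and 76.7%. Every measured mouse that had been obese was below every measured Control mouse, and the obese mouse itself lay among the LFD and ICR mice. The means were 17.3% ± 9.41 in MCR (SD, n = 3), 34.3% ± 22.9 in LFCR (n = 3), 46.4% ± 5.24 in LFD (n = 3), 46.6% ± 5.67 in ICR (n = 4) and 74.6% ± 1.80 in Control (n = 3). The differences from Control were -57.3 points in MCR, -40.3 in LFCR, -28.3 in LFD and -28.02 in ICR.

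**Figure D1:**
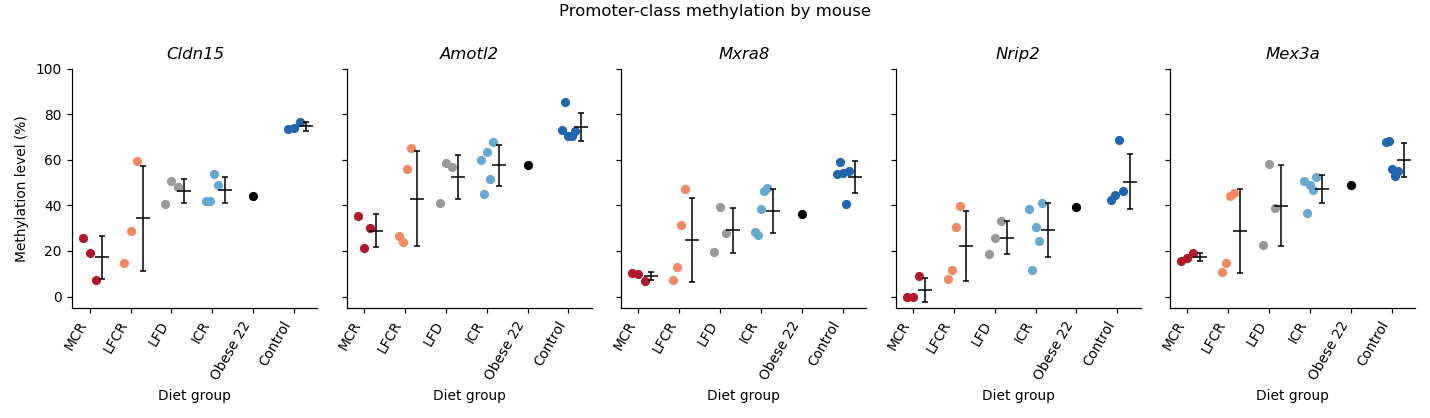
Promoter-class methylation level in percent (y axis) of the 5 genes, 1 point per mouse, by diet group (x axis), with the group mean and SD as a bar beside the points. At Cldn15 all mice of the 4 diets and Obese mouse 22 sit below the 3 measured Control mice, and LFCR mice spread widely at every gene.

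MCR was lowest and Control highest at all 8 Cldn15 CpGs. The first, at 136967816 and 53 bp before the start, is annotated to a gene body by the authors. It had 9.44% in MCR, 26.7% in LFCR, 29.5% in LFD, 31.3% in ICR, 31.6% in Obese mouse 22 and 63.7% in Control. The CpG at 136968002 had the largest difference, with 17.8% ± 8.55 in MCR (SD, n = 3) and 81.0% ± 3.96 in Control (n = 3). The last CpG, at 136968030, had the smallest, with 26.7% ± 2.89 in MCR and 75.5% ± 0.85 in Control. The MCR difference therefore ranged between -63.3 and -48.8 points over the whole stretch.

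Amotl2 was the gene with the most varied profile, since its 34 CpGs on chromosome 9 fall into 8 runs that are separated by more than 500 bp. It had 8 promoter-class CpGs with enough coverage. Those at 102716780, 102716804 and 102717867 had values in too few MCR mice for the fit. Their Control means were 15.6%, 7.15% and 1.28%, and their MCR differences were -7.32, -7.15 and -1.28 points. The promoter-class CpGs in the fit were 5 CpGs that the authors annotated to a 1st exon, between 102720419 and 102720515. They lie 2615 to 2711 bp after the RefSeq start printed above and have a median coverage of 187 reads. There the MCR mice 85, 95 and 96 had 35.5%, 21.2% and 29.9%. The LFCR mice 63, 67, 69 and 72 had 26.5%, 24.0%, 56.0% and 65.2%. The LFCR group thus falls into a pair within the MCR range and a higher pair. The LFD mice 42, 47 and 48 had 41.2%, 58.8% and 57.0%. The ICR mice 102, 103, 105, 106 and 112 had 59.9%, 45.1%, 63.3%, 51.4% and 67.8%, Obese mouse 22 had 57.8%, and the Control mice 1, 2, 5, 10 and 13 had 73.2%, 85.2%, 70.6%, 70.3% and 72.6%. No mouse of any of these diets reached the lowest Control mouse, and Control mouse 2 stood above the others of its group. The means were 28.9% ± 7.22 in MCR (SD, n = 3), 42.9% ± 20.8 in LFCR (n = 4), 52.3% ± 9.66 in LFD (n = 3), 57.5% ± 9.15 in ICR (n = 5) and 74.4% ± 6.21 in Control (n = 5). The differences from Control were -45.5 points in MCR, -31.4 in LFCR, -22.04 in LFD and -16.9 in ICR.

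A second Amotl2 stretch behaved like the 1st exon CpGs. It holds 6 gene body CpGs, 5788 to 6092 bp after the start, outside islands. MCR mice averaged 30.9% ± 4.66 (SD, n = 3), LFCR mice 48.1% ± 18.6 (n = 4), LFD mice 51.6% ± 9.54 (n = 3), ICR mice 60.9% ± 6.25 (n = 5) and Control mice 74.1% ± 4.12 (n = 5), with Obese mouse 22 at 70.3%. MCR differences of single CpGs there ranged between -55.3 and -22.5 points. At 102723896, the CpG with the largest MCR difference of the gene, 1 MCR mouse had 16.7%, and 4 Control mice averaged 72.0%. The neighbouring CpG at 102723889, chosen after its values were seen because all groups were measured there, had 14.5% ± 9.03 in MCR (SD, n = 3) and 69.8% ± 5.25 in Control (n = 5).

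The Amotl2 start printed above was almost unmethylated in the 21 libraries whatever the diet. Its 4 CpGs, of which 3 are in an island and 1 is on a shore, and of which 2 lie in the window printed above, had at most 2.35% in any mouse, and their Control mean was 1.32% ± 0.923 (SD, n = 5). The 3 CpGs that follow it, up to 1034 bp after the start, averaged 2.38% in MCR and 6.82% in Control, and 2 body CpGs near 8600 bp averaged 6.03% in MCR and 5.03% in Control. The CpG with the smallest MCR difference of the gene, at 102718382, belongs to these low stretches and had 0.687% in MCR and 1.16% in Control. At the other end, 8 body CpGs 10644 to 10842 bp after the start were close to fully methylated, at 84.0% ± 2.25 in MCR (SD, n = 3) and 93.3% ± 1.64 in Control (n = 5). The 3 CpGs of the 3′UTR averaged 57.0% in MCR (n = 2) and 56.1% in Control (n = 5). RefSeq also places the beginning of the gene at 102717091, upstream of the printed window. The 3 CpGs before that position, from 102716780 to 102716849, averaged 28.0% ± 6.98 in Control (SD, n = 3) and had 16.7% in 1 MCR mouse. The first CpG of the gene, at 102716780, had 8.33% in 1 MCR mouse and 15.6% ± 10.8 in Control (n = 3), and the last, at 102731943, had 30.8% in 1 MCR mouse and 19.9% ± 7.08 in Control (n = 5). MCR was the lowest group at 23 of the 34 Amotl2 CpGs and Control the highest at 27.

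**Figure D2:**
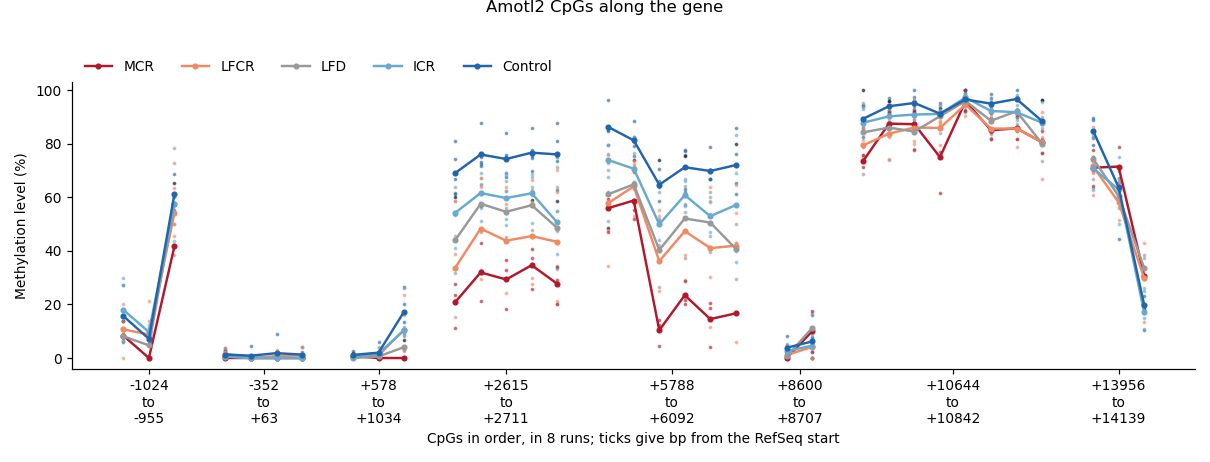
Methylation level in percent (y axis) of the 34 Amotl2 CpGs in order along the gene (x axis, not to scale), in 8 runs whose distance in bp from the RefSeq start stands below each. Lines are group means and dots single mice, with Obese mouse 22 in black; the groups separate in the runs that begin 2615 and 5788 bp after the start and lie together near 0 in the run around the start.

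Mxra8 had 3 measured CpGs on chromosome 4, at 155839713, 155839722 and 155839735, which is 33 to 55 bp after the RefSeq start in the 1st exon and on an island shore. The antisense gene Mxra8os shares them, so the values belong to both genes. Their median coverage of 145 reads makes them among the most deeply read CpGs here. The MCR mice 85, 95 and 96 had 10.2%, 10.0% and 6.8%. The LFCR mice 63, 67, 69 and 72 had 7.5%, 13.0%, 31.4% and 47.4%. The MCR mice are close together, and LFCR again splits into a low pair and a higher pair. The LFD mice 42, 47 and 48 had 19.7%, 39.5% and 28.1%. The ICR mice 102, 103, 105, 106 and 112 had 28.4%, 27.0%, 38.5%, 46.4% and 47.5%, Obese mouse 22 had 36.2%, and the Control mice 1, 2, 5, 10 and 13 had 53.7%, 59.0%, 54.1%, 40.7% and 55.3%. Control mouse 10 lay below the others of its group, and 1 LFCR and 2 ICR mice were above it. The means were 9.00% ± 1.92 in MCR (SD, n = 3), 24.8% ± 18.2 in LFCR (n = 4), 29.1% ± 9.96 in LFD (n = 3), 37.6% ± 9.69 in ICR (n = 5) and 52.5% ± 6.95 in Control (n = 5). The differences from Control were -43.5 points in MCR, -27.7 in LFCR, -23.5 in LFD and -15.0 in ICR.

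Levels at the 3 Mxra8 CpGs differed although they lie within 22 bp. The middle one, at 155839722, had the largest difference, with 15.95% ± 5.05 in MCR (SD, n = 3) and 69.5% ± 10.1 in Control (n = 5). The first had 9.01% ± 2.32 in MCR and 58.1% ± 9.23 in Control. The last had the smallest difference, with 2.05% ± 1.84 in MCR and 30.0% ± 5.63 in Control, at a coverage of 35.2 reads.

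Nrip2 had 10 CpGs with enough coverage on chromosome 6, and 1 more, at 128407381, had a coverage of only 7.86 reads. RefSeq places Nrip2 between 128397818 and 128409780, and the distance of its CpGs from a start was not worked out. Its intermediate levels lie in a single stretch of 7 CpGs annotated to the 1st exon between 128399890 and 128400016, outside islands. They are shared with the gene Gm44596, and 3 of them, between 128399936 and 128399947, entered the fits at a median coverage of 49.2 reads. At these 3 the MCR mice 85, 95 and 96 had 0%, 0% and 9.0%. The LFCR mice 63, 67, 69 and 72 had 7.6%, 11.5%, 30.3% and 39.7%. Methylation at these 3 CpGs was thus not seen in 2 of the 3 MCR mice, while LFCR mouse 72 came close to the lowest Control mouse. The LFD mice 42, 47 and 48 had 18.8%, 25.7% and 33.2%. The ICR mice 102, 103, 105, 106 and 112 had 38.5%, 11.5%, 30.7%, 24.5% and 41.2%, Obese mouse 22 had 39.5%, and the Control mice 2, 5, 10 and 13 had 42.4%, 44.6%, 68.6% and 46.1%. All mice of the 4 diets, and Obese mouse 22, were below the lowest Control mouse, some by only a few points. The means were 3.00% ± 5.19 in MCR (SD, n = 3), 22.3% ± 15.3 in LFCR (n = 4), 25.9% ± 7.22 in LFD (n = 3), 29.3% ± 11.9 in ICR (n = 5) and 50.4% ± 12.2 in Control (n = 4). The differences from Control were -47.4 points in MCR, -28.2 in LFCR, -24.5 in LFD and -21.1 in ICR. Over all 7 CpGs of the stretch, MCR averaged 9.37% (n = 2) and Control 57.0% ± 9.59 (SD, n = 4). There MCR mouse 85 had 2.13%, and MCR mouse 95 had too few values.

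Among all 10 Nrip2 CpGs the largest MCR difference was at 128399898, with 7.14% in 2 MCR mice and 68.6% in 4 Control mice. The first CpG, at 128399890, had 33.3% in 1 MCR mouse and 65.6% ± 5.09 in Control (SD, n = 3). The gene body was highly methylated in every group. There 2 CpGs at 128400602 and 128400659 averaged 81.4% ± 14.6 in MCR (SD, n = 3), 90.5% ± 4.95 in LFCR (n = 4), 88.8% ± 3.19 in LFD (n = 3), 92.3% ± 4.51 in ICR (n = 4) and 89.0% ± 4.80 in Control (n = 3). The CpG at 128400659 had the smallest difference of the gene, with 89.9% in 2 MCR mice and 90.9% in 2 Control mice. The last CpG, at 128407461, had 92.3% in 1 MCR mouse and 89.4% ± 4.24 in Control (n = 3).

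**Figure D3:**
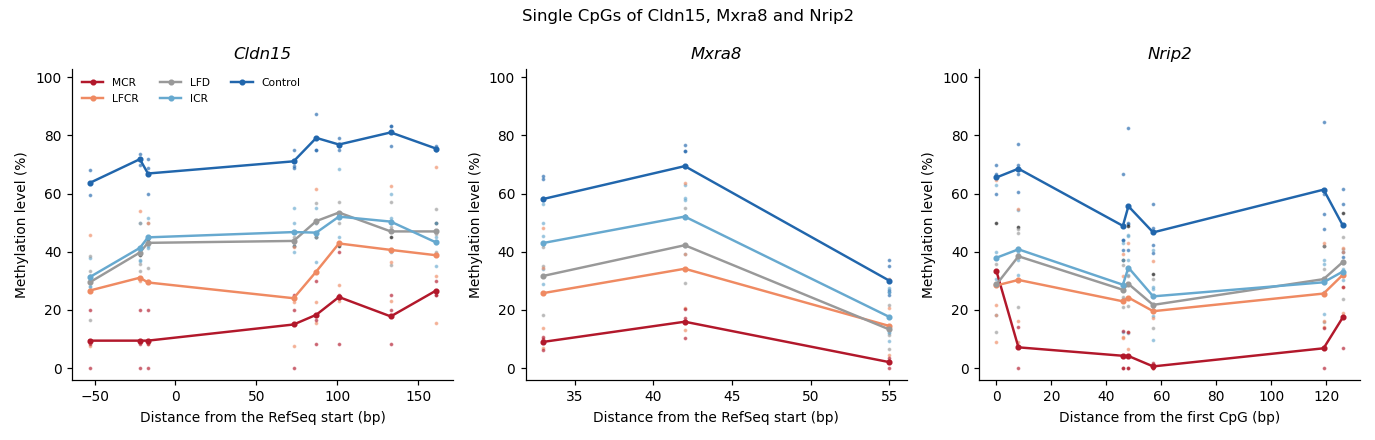
Methylation level in percent (y axis) at single CpGs of Cldn15 and Mxra8, by distance in bp from the RefSeq start (x axis), and of Nrip2, by distance from its first CpG. Lines join group means and dots are single mice, with Obese mouse 22 in black; the MCR line is lowest and the Control line highest at all 8 Cldn15 and all 3 Mxra8 CpGs.

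Mex3a had the most CpGs, 49 on chromosome 3, of which 47 are in an island. The 5 within Mir1905 lie 4369 to 4436 bp after the RefSeq start of Mex3a, with a median coverage of 67.0 reads. There the MCR mice 85, 95 and 96 had 15.7%, 16.7% and 19.2%. The LFCR mice 63, 67, 69 and 72 had 10.8%, 14.5%, 44.2% and 45.4%. The lowest single mice were thus in LFCR, not in MCR, and the LFCR group split into the same pairs as at Mxra8 and Amotl2. The LFD mice 42, 47 and 48 had 22.7%, 58.2% and 38.9%. The ICR mice 102, 103, 105, 106 and 112 had 50.5%, 36.6%, 49.0%, 46.7% and 52.3%, Obese mouse 22 had 49.0%, and the Control mice 1, 2, 5, 10 and 13 had 67.7%, 68.2%, 55.9%, 53.1% and 55.1%. LFD mouse 47 was inside the Control range, and all other mice of the diets were below it. The means were 17.2% ± 1.81 in MCR (SD, n = 3), 28.7% ± 18.6 in LFCR (n = 4), 39.9% ± 17.8 in LFD (n = 3), 47.0% ± 6.16 in ICR (n = 5) and 60.0% ± 7.34 in Control (n = 5). The differences from Control were -42.8 points in MCR, -31.3 in LFCR, -20.1 in LFD and -12.97 in ICR. Without LFD mouse 42, the lowest of its group, the LFD difference was -11.4 points.

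The Mir1905 CpGs were part of a longer methylated stretch of 48 Mex3a CpGs between 88536186 and 88537007. Over the 48, MCR averaged 13.2% ± 2.77 (SD, n = 3), LFCR 23.4% ± 15.6 (n = 4), LFD 31.8% ± 14.4 (n = 3), ICR 37.4% ± 7.27 (n = 5) and Control 49.9% ± 8.22 (n = 5), with Obese mouse 22 at 43.1%. Split into 3 runs of 16 CpGs, the MCR means were 23.8%, 4.66% and 11.1%, and the Control means of the same runs were 61.4%, 38.2% and 50.1%. The middle run was lowest in both groups, and the differences of -37.5, -33.6 and -39.1 points were alike. The CpG with the largest difference, at 88536814, had 4.87% ± 6.14 in MCR (SD, n = 3) and 59.1% ± 10.7 in Control (n = 5). The last, at 88537007, had 28.9% ± 3.43 in MCR and 72.2% ± 5.97 in Control. The first CpG of the gene, at 88532900 and 954 bp after the start, had the smallest difference, as it was at 0% in every mouse of these groups but LFD mouse 48, which had 2.27%.

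MCR was lowest and Control highest at 48 of the 49 Mex3a CpGs, and all groups were in the order MCR, LFCR, LFD, ICR and Control at 42. At every gene such counts are tied to how the genes were chosen, and neighbouring CpGs of the same mice are not separate evidence. The share of all CpGs with the same order was not worked out. The largest contrast between neighbours was at the edge of the stretch. Its outermost CpG, at 88536186, had 31.1% ± 9.55 in MCR (SD, n = 3) and 75.5% ± 8.17 in Control (n = 5). The next one, at 88536189 and chosen after its values were seen, had 81.1% ± 7.33 in MCR and 86.5% ± 3.11 in Control, and no other Mex3a CpG was above 38.5% in MCR.

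**Figure D4:**
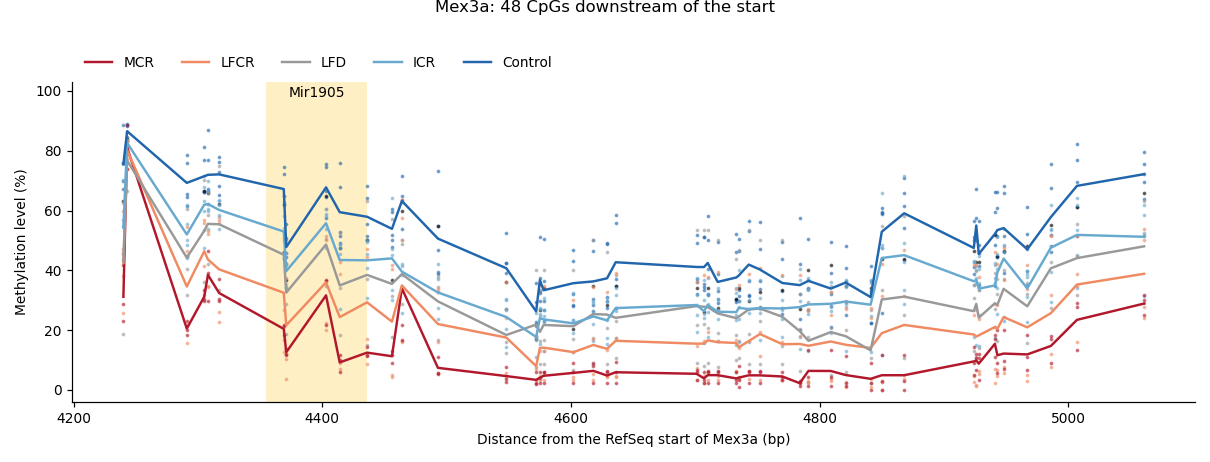
Methylation level in percent (y axis) of the 48 Mex3a CpGs of the long stretch by distance in bp from the RefSeq start (x axis), with the Mir1905 gene shaded. Lines are group means and dots single mice, with Obese mouse 22 in black; all 5 lines keep their order at 42 CpGs, and they meet near 80% at 1 CpG close to its left edge.

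Taking every CpG with enough coverage, the difference from Control was below 0 at 99 of 104 CpGs in MCR, 98 in LFCR, 99 in LFD and 98 in ICR. The median difference was -35.3 points in MCR, -25.6 in LFCR, -17.6 in LFD and -12.2 in ICR. Over the 129215 CpGs fitted in the whole table the medians were -7.30, -4.51, -3.07 and -2.11 points in the same order. In that fit 32.8% of all CpGs were called lower in MCR than in Control and 4.54% higher, and 12.1% were called lower and 1.48% higher in LFCR. Of 2792 promoters, 43.2% were called lower and 4.26% higher in MCR, and 25% lower and 2.08% higher in LFCR. The LFCR calls rest on the lower pair of mice: without LFCR mouse 63 or without LFCR mouse 67, limma called 0 promoters of the table, with 732 and 769 lower at an unadjusted p under 0.05, and without Control mouse 2 it called 225 lower and 16 higher. Neither LFD nor ICR had a call against Control, at CpGs or at promoters, by limma at an adjusted p under 0.05. At an unadjusted p under 0.05, limma counted 20274 CpGs lower and 4098 higher in LFD, and 13547 lower and 2980 higher in ICR. The same counts over promoters were 557 lower and 83 higher in LFD, and 375 lower and 65 higher in ICR.

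Ordered by the MCR difference, Cldn15 was the lowest of the 2792 promoters, Nrip2 came 3rd, Amotl2 6th, Mxra8 9th and Mex3a 11th, which is how they were chosen. Other promoters stood among them, namely Agap2 in 2nd place (-47.5 points), Cd37 in 5th (-46.3), Gm11523 in 7th (-43.9) and Gm15684 in 8th (-43.9), beside Gm44596, Mxra8os and Mir1905, which share CpGs with the genes. The first promoter after Mex3a and Mir1905 was 4930404N11Rik at -42.7 points. By the LFCR difference Cldn15 was again lowest, and Amotl2 was 6th, Mex3a 8th, Nrip2 14th and Mxra8 20th. In LFD the places were 2 for Cldn15, 9 for Nrip2, 11 for Mxra8, 17 for Amotl2 and 26 for Mex3a, and in ICR they were 1, 5, 21, 13 and 53 for the same genes in that order.

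The 84 fitted CpGs were also set beside CpGs of like Control level, with nothing read from the comparison beyond its values, since the MCR difference chose the genes. At a Control level of 50% to 70%, the 23 CpGs of these genes had a median MCR difference of -48.02 points, and the 16718 other CpGs had -19.5, with a lower quartile of -33.7. All 23 lay below that quartile. At 30% to 50% the medians were -34.0 points at 28 CpGs of these genes and -9.48 at the others, and at 70% to 90% they were -44.3 at 19 CpGs and -12.3 at the others. At 90% to 100% the 6 CpGs, all of Amotl2, had a median of -8.91, against -7.56 at the other CpGs. Under 10% the 7 CpGs had -0.870, against -0.0788. Island CpGs of the genes had a median of -35.9 points (50 CpGs), against -1.17 over all 28624 fitted island CpGs.

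**Figure D5:**
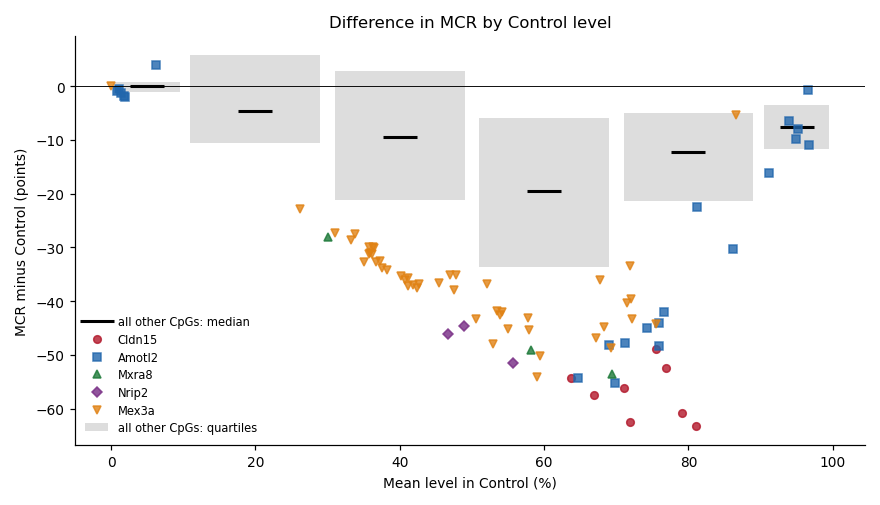
Difference of MCR minus Control in percentage points (y axis) against the mean level in Control in percent (x axis) for the 84 fitted CpGs of the 5 genes, 1 symbol per CpG. Grey boxes span the quartiles of all other CpGs by Control level with the median as a black line; from 30% to 70% every CpG of the genes lies below the box, and Amotl2 CpGs near 0% and near 100% lie in or close to it.

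LFD and ICR are weight-loss routes without continuous restriction, and neither entered the choice of the genes, so the difference between them was tested with limma over the whole table. No CpG or promoter of the table passed an adjusted p of 0.05, 0% in each direction, and thus none of the 84 CpGs and 5 promoters of these genes. At an unadjusted p under 0.05, limma counted 4008 CpGs lower and 1754 higher in LFD in the whole table, and 1 of the 84. Over promoters the counts were 69 lower and 38 higher. LFD was below ICR at 71 of the 84 CpGs and above at 11. The whole table also leaned lower, with a median LFD minus ICR difference of -0.679 points, and its share of CpGs below 0 was not worked out. Of the 84 CpGs, 48 are of Mex3a, and neighbouring CpGs of the same mice are not separate evidence. The promoter differences, LFD minus ICR, were -0.249 points at Cldn15 (SE 8.14), -5.17 at Amotl2 (SE 8.26), -8.49 at Mxra8 (SE 7.63), -3.42 at Nrip2 (SE 8.11) and -7.09 at Mex3a (SE 8.20). The limma adjusted p was 0.999 for each. The standard errors were larger than the differences at 4 of the 5 genes, and differences of this size were not detectable with 3 LFD and 5 ICR mice. LFD mouse 42 was the lowest of its group at 5 of 5 promoters and also had the lowest mean over the whole library, 48.3%. ICR mouse 103 was lowest in its group at 5 of 5 promoters too, with 50.8% over the library. At Cldn15 ICR mouse 105 was all but level with it, and ICR mouse 102 had no value. In MCR the mouse with the lowest library mean, mouse 95, was lowest at 1 of 5 promoters. In Control that mouse was 10, and it was lowest at 3 of 5. At the promoter-class levels, LFCR mice 63 and 67 were below LFCR mice 69 and 72 at each gene where they had a value, with library means of 46.5% and 47.1% against 52.1% and 54.5%.

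Other genes of the same pathways were taken from lists. That their differences are smaller than those of the 5 genes was fixed by the choice of the genes, and nothing is read from it. Among 48 further genes of claudins and the tight junction, 10 had a measured promoter, and 5 fell and 0 rose in MCR. Tjp3, a scaffold protein of the tight junction, had 10.1% in MCR and 16.4% in Control (difference -6.30 points, SE 1.40, limma adjusted p = 0.00197). Cldn14 had 78.6% in MCR and 89.4% in Control (-10.8 points, SE 2.41, limma adjusted p = 0.00205), and Cldn4 had 52.3% in MCR and 71.0% in Control (-18.7 points, SE 4.25, limma adjusted p = 0.00232). The share of 5 in 10 is close to the 43.2% of all promoters, and the list's median of -5.71 points compares with -3.78 over all promoters. With MCR mouse 85 or Control mouse 1 left out, 3 of the 10 fell, and with Control mouse 5 left out, 7 of the 10 fell. Over all promoters those fits called 1014 of 2838, 1183 of 2792 and 1126 of 2600 lower, in the same order. In LFCR 2 of the 10 fell, against 25% of all promoters.

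Of 29 genes of the angiomotins and the Hippo pathway, 6 were measured, and 2 fell and 0 rose in MCR. They were Tead3 and Tead2, transcription factors that bind YAP. Tead3 had 5.58% in MCR and 18.8% in Control (-13.3 points, SE 2.24, limma adjusted p = 0.000798), and Tead2 had 21.8% in MCR and 31.3% in Control (-9.49 points, SE 2.69, limma adjusted p = 0.00875). Tead4 was near 0 in both groups, at 0.639% in MCR and 0.490% in Control. In the Hippo list 1 of 6 fell in LFCR. Of all promoters, 43.2% were called lower in MCR and 25% in LFCR.

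Of 54 genes of the extracellular matrix other than collagens, 10 were measured, and 5 fell and 0 rose in MCR, with 3 of 9 falling when Control mouse 2 or 5 was left out. Mxra7 had 2.32% in MCR and 22.7% in Control (-20.4 points, SE 3.64, limma adjusted p = 0.000877). Acan, which encodes the proteoglycan aggrecan, had 38.5% in MCR and 57.7% in Control (-19.3 points, SE 3.57, limma adjusted p = 0.000954), and Ltbp3, which binds latent TGF-beta, had 8.99% in MCR and 22.3% in Control (-13.3 points, SE 2.69, limma adjusted p = 0.00123). The median of the list was -5.49 points. In LFCR 3 of the 10 fell. The shares called lower over all promoters were 43.2% in MCR and 25% in LFCR, and their median MCR difference was -3.78 points.

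Few relatives of the genes were measured, 3 of 10. Mex3d, a paralog of Mex3a, fell in MCR to 69.8%, against 88.3% in Control (-18.5 points, SE 3.19, limma adjusted p = 0.000824). Mex3b, another paralog, was unmethylated, with 0.495% in MCR and 0.752% in Control. Mxra7 is listed with these relatives for its name only.

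Promoters of cell type markers were examined because the pad holds several cell types, and their part in the results was not tested. No promoter of 9 adipocyte markers entered the fit of all 21 libraries. Over 47 fitted CpGs of any annotation at 4 of these genes, limma called 10 lower (21.3%) and 8 higher in MCR. Over all fitted CpGs the shares were 32.8% lower and 4.54% higher. The median MCR difference of the 47 was -6.61 points. Of 15 leukocyte markers 3 were measured, and in MCR Cd37 and Zap70 fell by 46.3 and 21.5 points while Lat rose by 35.4. Averaged over these 3, which moved in opposite directions, mice had 32.7% to 35.6% in MCR, 32.3% to 40.7% in LFCR, 32.4% to 43.8% in LFD, 34.0% to 41.1% in ICR, 39.6% in Obese mouse 22 and 39.0% to 47.6% in Control. Such an average over several promoters is the plain mean of those with a value in a mouse, so mice that lack some are not placed alike. Of 12 luminal epithelial markers 4 were measured and 3 fell in MCR, with levels of 24.2% to 25.9% in MCR, 26.4% to 36.3% in LFCR, 26.7% to 34.8% in LFD, 30.0% to 35.0% in ICR, 36.6% in Obese mouse 22 and 38.9% to 61.2% in Control. Without MCR mouse 95, 1 of the 3 leukocyte promoters fell. The 1 measured fibroblast promoter fell, with 6.60% to 9.35% in MCR, 4.54% to 11.5% in LFCR, 8.62% to 14.9% in LFD, 7.22% to 12.2% in ICR, 11.7% in Obese mouse 22 and 14.02% to 16.9% in Control. The leukocyte, luminal and fibroblast levels were lower in every MCR mouse than in every Control mouse. So were the levels of the tight junction, Hippo and matrix lists and the means over whole libraries. The endothelial, muscle and basal levels overlapped between MCR and Control mice. Endothelial levels were 39.3% to 50.2% in MCR and 39.7% to 48.6% in Control. Muscle levels were 50.7% to 52.2% in MCR and 49.3% to 52.0% in Control. Basal levels were 11.6% to 33.6% in MCR and 14.9% to 22.8% in Control. Which promoters each mouse had was not accounted for in the list averages, and Lat went the other way from the leukocyte average. Of 5 measured endothelial promoters 2 fell and 1 rose in MCR, with 1 falling without MCR mouse 95 or Control mouse 1, 3 falling without Control mouse 5, and 0 rising without MCR mouse 85 or Control mouse 2. Of 3 muscle promoters 2 fell and 1 rose, and the 1 basal epithelial promoter was called lower only without MCR mouse 95. Beside these marker counts, 43.2% of all promoters were called lower in MCR and 4.26% higher. The lowest group mean of a measured marker promoter was 6.95%, at Krt19 in MCR.

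The promoters whose profile over the mice was most like each gene, by the mean absolute difference after each was centred on its own mean, were named, 3 per gene, and some of them recur. For Mxra8 and for Mex3a they were 4930404N11Rik, Mfsd12 and Caskin2, at 2.91 to 3.38 points over 20 libraries, where the median promoter was at 13.8 and 14.05 points. For Amotl2 they were Gm27998 at 3.40 points, 4930404N11Rik at 3.87 and Mfsd12 at 4.17. For Cldn15, over 16 libraries, they were Mxra8 at 6.39 points, Mxra8os at 6.60 and Agap2 at 6.75. For Nrip2, over 19 libraries, they were Gm16712 at 5.14 points, Gm11523 at 5.36 and Gm27998 at 5.93. The likeness is over libraries of the same mice that chose the genes. All these promoters were far below Control in MCR too, such as Mfsd12 with 26.4% in MCR and 67.0% in Control. The matching used the MCR and Control mice, so this was fixed by it, and nothing is read from it.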

How the data were processed

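The RRBS libraries hold MspI fragments of mouse mammary fat pad DNA, 40 to 170 bp long, per the labels' protocols. Bismark and mm10 are named, per the submitters' processing notes; versions and filters are not given in the sources used here. The authors deposited the methylation level of each CpG and library as a fraction, printed here in percent, and the average coverage per CpG as a signal in reads. Read counts per library are not in the columns used, so limma on the levels replaced a count model, and no binomial intervals are given. The coverage times 21 was whole at 100% of CpGs (tolerance 1e-06).

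Columns were matched by library name and groups come from the labels. Each library is taken as 1 mouse by its number, which the labels do not state, so p-values measure the spread between libraries, and nothing says that DNA was extracted in shared batches. Of 283974 CpGs, 65 outside the autosomes and chromosome X were left out. CpGs needed an average coverage of 10 and, for fits, a value in 3 mice of each group, and promoters 3 such CpGs. A mouse needed 0.5 of the CpGs of a set for a level. CpGs over 500 bp apart began a new run. The limma model used 1 term for each group, moderated variance, two-sided p-values and Benjamini-Hochberg adjustment at 0.05, and was checked on simulated data. The profile likeness required 12 shared libraries. Fits ran in limma 3.58.1 under R 4.3.3, tables were read by the R package data.table (version 1.17.8), and summaries and plots used pandas 2.3.3, numpy 2.4.6 and matplotlib 3.10.9 under Python 3.11.15.

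The genes and lists were chosen with earlier results of these data known. Single CpGs named are the largest and smallest MCR difference and the first and last of each gene. List promoters named are up to 3 called ones of smallest p, and relatives of the genes. For likeness, the 3 nearest promoters that share no CpG are named. Alternatives were coverage minimums of 5 and 20, an arcsine square root scale, all 25 libraries, promoters without the 1st exon, CpGs measured in all 21 libraries and leaving out each mouse. Gene starts and sequences come from RefSeq tables of GRCm38.p6.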

Additional observations from a re-analysis of the deposited data

Results flagged for a closer look

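Within groups of 4 or more mice, single mice stood apart from the rest by Dixon's criterion in 6 of 38 groups tested. Chance gives about 1 in 20 for independent groups. These groups hold the same mice at several sets of CpGs, so no excess is read from the count. In Control, mouse 2 was high at the 1st exon CpGs of Amotl2 (85.2%), mouse 10 was low at Mxra8 (40.7%), and the same mouse 10 was high over the 7 first-exon CpGs of Nrip2 (71.3%). In ICR, mouse 103 was low over the 48 CpGs of Mex3a (24.9%), and mouse 112 was high at the Amotl2 start, though only at 0.676%. In LFCR, mouse 72 was high at the 2 body CpGs of Nrip2 (97.8%).

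The libraries that the comparisons left out carried methylation at the 4 CpGs of the Amotl2 start, with 48.4% in LFD mouse 46, 47.2% in Obese mouse 27, 47.2% in Obese mouse 28 and 50.7% in Obese mouse 40, above every Control mouse.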

How the results depend on the processing

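The difference from Control kept its sign for every gene and diet under every alternative that gave a value. A move by more than the spread between mice was flagged in 3 cases, all at the Amotl2 CpGs outside the promoter class. In 2 of them the unit changed with the arcsine square root scale, so the sizes cannot be compared. The MCR value was -20.0 on that scale beside -15.6 points, and the ICR value was -7.28 beside -5.06 points. With all 25 libraries the LFD difference was -1.37 points in place of -8.02. Leaving out 1 mouse moved the Mex3a LFD difference to between -29.2 and -11.4 points at the promoter class (-20.1 with all mice) and to between -23.5 and -9.98 at the other CpGs (-17.3 with all mice), the smaller sizes being without LFD mouse 42. No CpG or promoter of the genes was called between LFD and ICR under any alternative.

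The sign of LFD minus ICR turned in some promoters, none of them called. With all 25 libraries it was 1.01 points at Amotl2 and 0.700 at Nrip2. Leaving out 1 mouse gave -2.26 to 2.70 points at Cldn15, -8.41 to 0.380 at Amotl2, -16.2 to 1.53 at Mex3a, -7.88 to 0.137 at Nrip2 and -13.7 to -3.78 at Mxra8. Without LFD mouse 42 it was positive at Cldn15, Amotl2, Mex3a and Nrip2, and without ICR mouse 106 or 112 at Cldn15 (1.84 and 0.514).

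Cldn15 had no value at a coverage minimum of 20, Cldn15 and Nrip2 had none with CpGs measured in all 21 libraries, and Cldn15, Mxra8 and Mex3a had none for promoters with all 25 libraries. Without the 1st exon only Mex3a had a value, and it did not change. No paired analysis was possible because the groups share no replicate numbers. The depth of single values is unknown, and groups hold only 3 to 5 mice.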
